A study of Mus musculus with 6 samples.

Results

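Cell cycle transcripts were compared between tumour-infiltrating T cells with high and with low binding of the lectin L-Pha, separately for genes of DNA replication and genes of mitosis. The members were 45 genes of known cell cycle function, out of 43629 gene identifiers in the count table. Of them 16 were replication genes. The other 29, called mitotic, took in all the rest, among them Tuba1b, Tubb5, Hmgb2 and Cks1b. The members were named by symbol, with earlier results of these data known, and all 45 had a matching identifier. T cells came from pooled subcutaneous B16-OVA tumours, a melanoma line that expresses ovalbumin, grown in C57BL/6 mice and taken on day 14. The sort gated TCRB+ CD3 cells according to the extraction protocol and CD8+ TCR+ cells according to the design text. L-Pha binds branched N-glycans, and the sorted groups were labelled L-Pha high (3 libraries) and L-Pha low (3 libraries). No label tells whether replicate libraries are separate tumour pools or animals, so p-values reflect only the spread between libraries, part of which may be technical. Levels are TMM-scaled CPM (counts scaled to library size), listed in the order of libraries 1, 2 and 3, and a positive log2 fold change, given with its standard error (SE), means a higher level in the L-Pha high group.

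A dividing cell first licenses replication origins with the Mcm2 to Mcm7 helicase, fires them under cyclin E-bound and other kinases, and makes deoxynucleotides. It then builds a spindle under cyclin B with Cdk1 and the Polo and Aurora kinases, and ends mitosis when the anaphase-promoting complex destroys cyclins and securin. Transcripts of the first step are known to peak around the entry into S phase, and those of the second from late S phase to mitosis. In tumours both CD8+ T cells and melanoma cells divide, so these transcripts are not particular to a cell type.

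Total counts ran from 2610729 to 3521117 per library, and each member had at least 22 counts in every library. The libraries held T cell RNA together with RNA of other cells of the tumour. The 16 T cell markers took 0.0386% to 0.0975% of the counts of low libraries and 0.0538% to 0.0859% of those of high libraries, with the lowest share of each group in its library 3, and 10 of 14 tested ones had lower point values in L-Pha high. Cd8a had 153 to 625 counts per library, whereas Cd4 had 0 to 4 counts and Trac, a T cell receptor constant gene, 0 to 3; a count of 0 allows up to 3 counts. The 9 melanoma markers took 0.950% to 1.66% and 1.21% to 1.80%, with the highest share of each group in library 3. Most of that share was Dct (23733 to 42410 counts), which had a log2 fold change of 0.25 (SE 0.247). Of the 9 melanoma markers 6 had lower point values in L-Pha high. For neither list did the groups separate (p = 1 and 0.5 by a two-sided exact permutation test whose smallest possible p is 0.1; adjusted over 6 marker lists, 1 for each). Markers of macrophages took 0.0138% to 0.0257% of low and 0.0194% to 0.0321% of high libraries, and 8 of 8 tested ones had higher point values in L-Pha high. The 4 natural killer cell markers took 0.00203% to 0.00407% and 0.00477% to 0.00605%, without overlap. Nearly all of that share was Eomes (22 to 106 counts) and Klre1 (29 to 99 counts), which CD8+ T cells can also express. The more specific Ncr1 and Klrb1c had 0 to 2 and 0 to 5 counts per library. For the macrophage and natural killer lists the same test gave an exact p of 0.2 and 0.1, adjusted 0.6 for each, and the part of such cells in the results below was not tested. In such mixed libraries, fewer cells of a type and less RNA per cell cannot be told apart.

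The promoters of the members were searched for 3 motifs known from cell cycle genes, and a few are shown here because the choice of members did not use these letters. RefSeq promoter windows on GRCm38.p6, from 250 bases before to 50 after the start of transcription, were found for 13 replication genes (14 windows) and 24 mitotic genes (24 windows). Not matched were Gins2, Mcm4, Ccne2, Kif20a, Stmn1, Tpx2, Ccna2 and Aurkb. The CHR, or cell cycle genes homology region, was searched as TTTGAA, the CCAAT box as CCAAT, and the E2F site as TTTCCCGC, TTTCGCGC, TTTGCCGC or TTTGGCGC, on both strands and with overlapping matches of the E2F site kept. CHR letters stood in 66.7% of mitotic windows (16 of 24) and 14.3% of replication windows (2 of 14), against 17.9% of all 32851 windows in the table. E2F letters stood in 35.7% of replication windows (5 of 14) and 4.17% of mitotic windows (1 of 24), against 2.26% of all windows. CCAAT stood in 87.5% and 71.4% of the mitotic and replication windows, against 37.4% of all. CHR elements are known to be bound by the DREAM and MuvB complexes and CCAAT boxes by NF-Y. The 250 upstream bases of 3 mitotic and 2 replication genes with several matches are printed 5′ to 3′ on the gene's strand, with CHR, CCAAT and E2F letters in capitals (TTCAAA and ATTGG are CHR and CCAAT on the other strand). They are Kif22 at chr7:127042421-127042670 (minus strand), Kif11 at chr19:37376132-37376381 (plus strand), Top2a at chr11:99024190-99024439 (minus strand), Mcm5 at chr8:75109259-75109508 (plus strand) and Mcm6 at chr1:128359706-128359955 (minus strand). In Kif22 and Kif11 a CHR match and a CCAAT match lie close before the start, at positions -17 and -54 in Kif22 and -19 and -45 in Kif11, counted from 0 at the first transcribed base. In Mcm5 and Mcm6 overlapping E2F matches lie at -153 and -149 and at -110 and -106.
Kif22: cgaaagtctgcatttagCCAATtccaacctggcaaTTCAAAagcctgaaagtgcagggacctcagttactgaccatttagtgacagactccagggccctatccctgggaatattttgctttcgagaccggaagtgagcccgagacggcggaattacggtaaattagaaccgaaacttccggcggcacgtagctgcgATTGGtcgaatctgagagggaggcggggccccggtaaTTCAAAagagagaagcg
Kif11: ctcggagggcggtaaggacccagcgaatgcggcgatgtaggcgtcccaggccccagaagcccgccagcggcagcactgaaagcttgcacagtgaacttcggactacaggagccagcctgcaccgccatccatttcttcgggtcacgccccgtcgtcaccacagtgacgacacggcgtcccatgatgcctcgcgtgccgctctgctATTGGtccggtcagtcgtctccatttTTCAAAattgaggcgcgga
Top2a: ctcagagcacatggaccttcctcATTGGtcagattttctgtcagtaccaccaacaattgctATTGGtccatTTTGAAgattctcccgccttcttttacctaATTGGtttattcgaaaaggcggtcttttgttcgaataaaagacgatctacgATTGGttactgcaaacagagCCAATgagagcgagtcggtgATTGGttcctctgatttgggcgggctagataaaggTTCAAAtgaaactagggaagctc
Mcm5: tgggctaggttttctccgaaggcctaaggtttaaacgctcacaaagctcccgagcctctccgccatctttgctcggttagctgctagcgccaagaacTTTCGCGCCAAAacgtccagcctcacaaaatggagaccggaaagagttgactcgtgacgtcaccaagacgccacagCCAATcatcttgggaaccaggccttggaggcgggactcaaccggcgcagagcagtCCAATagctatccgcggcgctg
Mcm6: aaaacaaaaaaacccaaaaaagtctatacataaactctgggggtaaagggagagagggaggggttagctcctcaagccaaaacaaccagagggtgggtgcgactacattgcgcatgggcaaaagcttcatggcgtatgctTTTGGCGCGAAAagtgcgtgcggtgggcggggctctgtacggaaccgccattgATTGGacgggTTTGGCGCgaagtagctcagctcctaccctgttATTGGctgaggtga

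No cell cycle member passed the test between L-Pha high and L-Pha low cells, in either phase. By edgeR 0 of 16 replication genes and 0 of 29 mitotic genes were called at an adjusted p of 0.05 over all 11183 tested genes, of which 0.00894% (1 gene) were called. At an unadjusted p under 0.05 edgeR counted 1 replication gene (Gins2) and 1 mitotic gene (Plk1), both higher, where 1.82% of all genes were higher, 1.97% lower and 3.78% in either direction at that level. DESeq2 called 0 members, against 27 of 13808 genes (0.196%), and limma-voom called 0 members and 0 of all genes. By each of these tools 1 replication and 2 mitotic members were at an unadjusted p under 0.05, against 322 of all genes tested by edgeR for DESeq2 and 420 for limma-voom. In 3 of 45 members (Gins2, Kif22 and Kif11) every L-Pha high library lay above every L-Pha low library, against 4.23% of all genes, and in 0 members the reverse held, against 4.18% (8.41% in either direction). Standard errors of the members' log2 fold changes ran from 0.202 to 0.366.

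Point values differed in their balance between the phases, without a test of that difference. Mitotic genes had a median log2 fold change of 0.21, with 21 of 29 higher in L-Pha high. Replication genes had a median of 0.04, with 8 of 16 higher. All tested genes had a median of -0.01, with 49.3% higher. Scaling by library totals alone put the median of all genes at 0.10, and 27 of 29 mitotic and 13 of 16 replication genes were then higher, with medians of 0.32 and 0.15. Leaving out single libraries kept the mitotic median between 0.14 (high library 2 left out) and 0.25 (high library 1 left out). The replication median depended on the libraries kept. It was -0.08, 0.17 and -0.02 when low library 3, 2 or 1 was left out, and 0.15, 0.01 and 0.04 when high library 1, 2 or 3 was. Without low library 2 the phases thus had medians of 0.17 and 0.22. With both libraries numbered 3 left out, which had the lowest T cell shares, they were -0.06 with 6 of 16 higher for replication and 0.20 with 19 of 29 higher for mitosis. That setting was chosen after seeing the data.

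**Figure D1:**
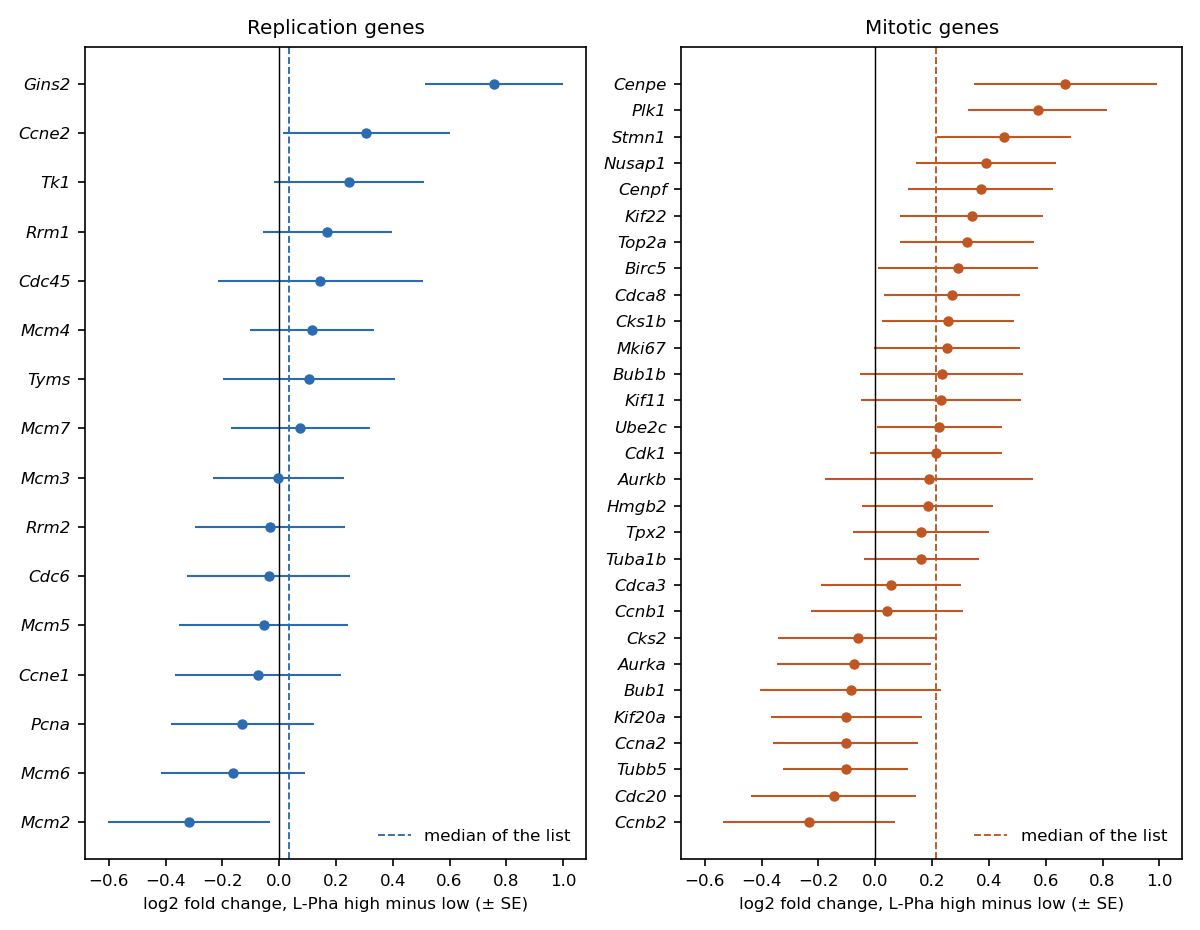
Log2 fold changes of the 16 replication genes (left) and 29 mitotic genes (right), L-Pha high minus L-Pha low, with standard errors as bars; 3 libraries per group. The dashed line is the median of each list, 0.04 and 0.21, and Gins2, Cenpe and Plk1 lie farthest to the right.

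Among the genes of origin licensing and the replicative helicase, Gins2 stood apart from the others. Gins2 encodes a subunit of the GINS complex, which joins Cdc45 and the Mcm ring to form the active helicase (ENSMUSG00000031821, chr8:120578633-120589304, GRCm38 as in the count table). It stood at 58.2, 45.5 and 47.7 CPM in the low libraries against 70.05, 103 and 83.3 CPM in the high libraries. Every high library was above every low library, and the difference of 1.69-fold did not pass over all genes (log2 fold change 0.76, SE 0.244, edgeR adjusted p = 0.859). Its adjusted p ranged from 0.229 to 1.00 over 19 alternatives, with a log2 fold change between 0.59 and 0.88. The genes of the other GINS subunits, named after their values were seen, did not pass either. Gins1, at a low level of 4 to 12 counts per library, had means of 3.28 ± 0.0735 against 1.88 ± 0.669 CPM in the high and low groups (SD, n = 3 each). Its log2 fold change was 0.80 (SE 0.554), with every high library above every low library. Gins3 and Gins4 had lower point values in L-Pha high, -0.48 and -0.37 on the log2 scale (SE 0.455 and 0.342).

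The other 8 helicase and licensing genes lay between -0.32 (Mcm2) and 0.15 (Cdc45), and 0 passed by edgeR. Cdc45, which activates the Mcm ring, had means of 13.8 ± 2.79 against 12.4 ± 5.08 CPM in the high and low groups (SD, n = 3 each), a difference of 0.15 on the log2 scale. Mcm2, a subunit of the ring, stood at 60.5, 88.2 and 40.6 CPM in the low libraries against 50.9, 44.6 and 56.6 CPM in the high libraries. L-Pha low 2 was the highest and L-Pha low 3 the lowest of all 6 libraries, so the high libraries fell inside the range of the low ones (log2 fold change -0.32, SE 0.285, edgeR adjusted p = 1). Mcm5 gave the same picture, with 56.6, 91.3 and 37.3 CPM in the low libraries and 61.5, 62.7 and 54.3 CPM in the high libraries (log2 fold change -0.05, SE 0.298). Mcm3, Mcm4, Mcm6 and Mcm7 had log2 fold changes of 0.00, 0.12, -0.16 and 0.07. Cdc6, the loader of the ring, was at -0.04 (SE 0.287).

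Within L-Pha low the Mcm genes had their highest level in the same library. In all 6 of them L-Pha low 2 was the highest of the low libraries, which held for 29.5% of all tested genes, and L-Pha low 3 was the lowest in 4 of the 6, against 37.2% of genes. Their median SD of log2 CPM was 0.37 within L-Pha low and 0.15 within L-Pha high, whereas over all tested genes the medians were 0.39 and 0.31. Low library 2 was also the highest low library for 12 of the 16 replication genes. In that library Gm42418, a gene that overlaps a ribosomal RNA repeat, took 24.96% of its counts against 9.59% to 15.15% in the other libraries. The T cell share of L-Pha low 2 was 0.0973%, level with 0.0975% in L-Pha low 1. L-Pha low 3 had the lowest T cell share, 0.0386%. The part of either in the spread of the Mcm genes was not tested.

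Cyclin E, the clamp and the nucleotide enzymes did not separate the groups. Ccne1 and Ccne2 encode the E cyclins that drive entry into S phase. Ccne2 stood at 18.1, 22.6 and 24.6 CPM in the low libraries against 19.4, 34.05 and 27.3 CPM in the high libraries, where the groups overlapped (log2 fold change 0.31, SE 0.293). Ccne1 was at 18.4, 17.4 and 17.1 CPM in the low libraries and 19.98, 13.6 and 16.7 CPM in the high libraries, again overlapping (log2 fold change -0.08, SE 0.292). Pcna encodes the sliding clamp of the replicative polymerases. It stood at 109, 112 and 91.3 CPM in the low libraries against 114, 66.3 and 106 CPM in the high libraries, and L-Pha high 2 was the lowest of the 6 libraries and the others lay close together (log2 fold change -0.13, SE 0.252). Rrm1 and Rrm2, the subunits of ribonucleotide reductase, differed by 0.17 and -0.03 on the log2 scale (SE 0.227 and 0.263). Rrm2 stood at 59.9, 62.5 and 38.03 CPM in the low libraries and 61.5, 50.9 and 44.3 CPM in the high libraries, which overlapped. Thymidylate synthase, Tyms, stood at 17.5, 31.3 and 36.9 CPM in the low libraries and 26.9, 30.4 and 34.6 CPM in the high libraries, with L-Pha low 1 as the lowest library (log2 fold change 0.10, SE 0.302). Tk1, the cytosolic thymidine kinase, had means of 42.4 ± 4.88 against 35.6 ± 8.6 CPM in the high and low groups (SD, n = 3 each), or 0.25 on the log2 scale (SE 0.265).

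**Figure D2:**
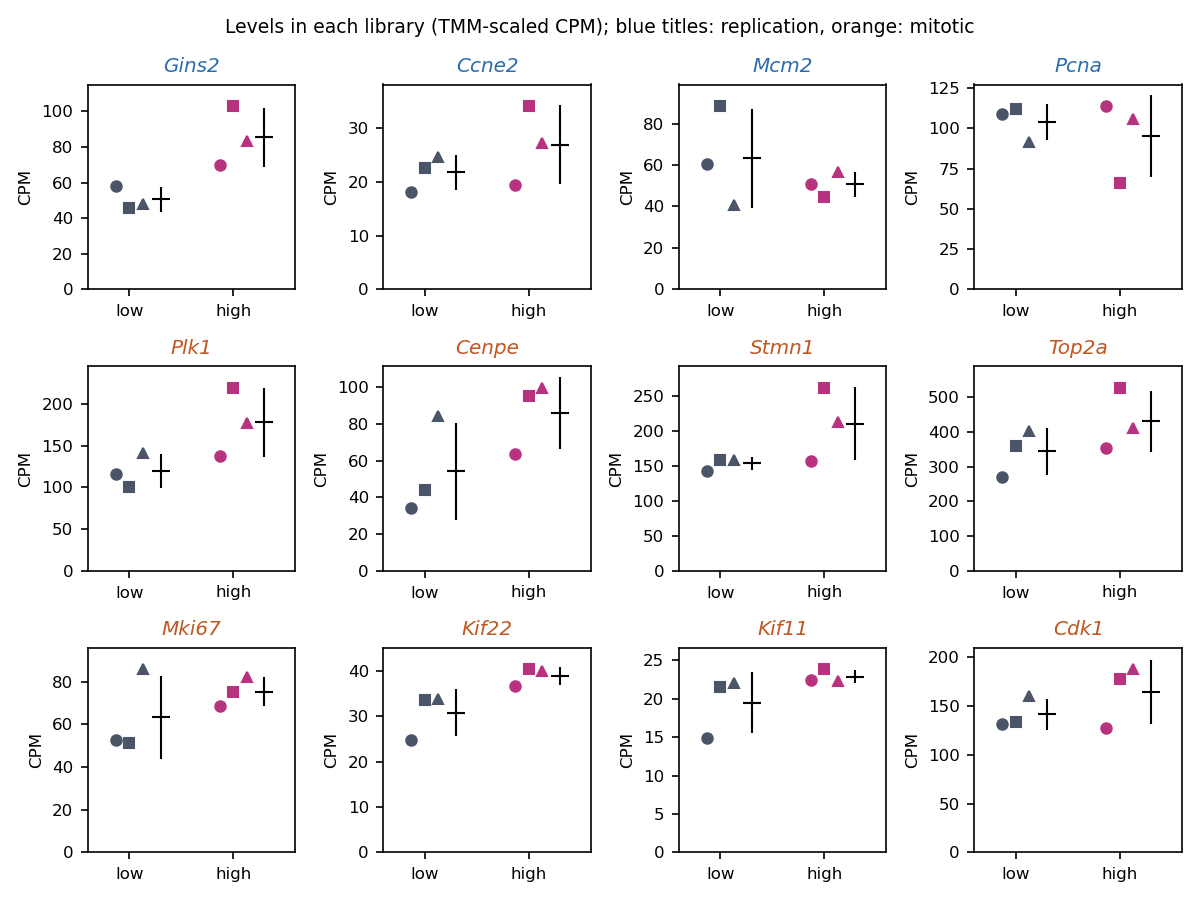
TMM-scaled CPM (vertical axis, from 0) of 4 replication genes (blue titles) and 8 mitotic genes (orange titles) in L-Pha low and L-Pha high; circles, squares and triangles are the libraries numbered 1, 2 and 3, and bars show the mean and SD of 3 libraries. The groups do not overlap for Gins2, Kif22 and Kif11, and they overlap for the other 9 genes.

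Among the mitotic kinases, Plk1 had the smallest p of the mitotic genes. Plk1 encodes the Polo-like kinase of mitotic entry, centrosome maturation and cytokinesis (ENSMUSG00000030867, chr7:122159437-122169875). It stood at 116, 101 and 142 CPM in the low libraries against 137, 219 and 177 CPM in the high libraries. L-Pha low 3 was slightly above L-Pha high 1, so the groups overlapped, and the 1.49-fold difference did not pass over all genes (log2 fold change 0.57, SE 0.245, edgeR adjusted p = 1; adjusted p 0.325 to 1 over 19 alternatives). The Aurora kinase genes lay nearer 0, at -0.08 for Aurka and 0.19 for Aurkb on the log2 scale (SE 0.272 and 0.366). Aurkb acts in the chromosomal passenger complex with survivin (Birc5) and borealin (Cdca8). Birc5 had means of 274 ± 94.7 against 224 ± 51.5 CPM in the high and low groups and Cdca8 78.02 ± 14.7 against 64.6 ± 7.75 CPM (SD, n = 3 each), or 0.29 and 0.27 on the log2 scale. Of these 5 genes 4 had higher point values and 0 passed by edgeR.

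The kinesin, kinetochore and spindle genes had the highest median of the mitotic role groups, 0.34, with 6 of 7 higher in point value and 0 called by edgeR. Cenpe, a kinetochore motor that brings chromosomes to the spindle equator, stood at 34.3, 44.1 and 84.3 CPM in the low libraries against 63.7, 95.2 and 99.6 CPM in the high libraries. Low library 3 lay within the high range and the groups overlapped. The log2 fold change was 0.67 (SE 0.322, edgeR adjusted p = 1), and 1.14 without that library, with an adjusted p of 0.160, the lowest of 19 alternatives. Kif22, a chromosome-bound motor that pushes chromosome arms, stood at 24.9, 33.7 and 33.9 CPM in the low libraries against 36.8, 40.4 and 39.98 CPM in the high libraries. Its groups were separated by a narrow gap (log2 fold change 0.34, SE 0.252). Kif11, the motor that pushes spindle poles apart, was likewise separated, at 14.9, 21.5 and 22 CPM in the low libraries and 22.4, 23.8 and 22.3 CPM in the high libraries, though L-Pha low 2 and 3 lay just under the high libraries (log2 fold change 0.23, SE 0.281). Nusap1 and Tpx2, which bundle and nucleate spindle microtubules, were at 0.39 and 0.16 on that scale (SE 0.246 and 0.24). Cenpf, a kinetochore protein of late interphase and mitosis, had 0.37 (SE 0.255), and Kif20a, a cytokinesis motor, -0.10 (SE 0.266).

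The general markers of cycling cells had higher point values that lay inside the spread. Mki67, which encodes the proliferation antigen Ki-67, stood at 52.8, 51.4 and 85.8 CPM in the low libraries against 68.7, 75.03 and 82.3 CPM in the high libraries. The highest value of all was that of L-Pha low 3, and the other low libraries lay under every high library (log2 fold change 0.25, SE 0.258). Top2a, the topoisomerase that untangles replicated chromosomes, was at 270.5, 359 and 403 CPM in the low libraries and 353, 526 and 412 CPM in the high libraries, with the ranges overlapping (log2 fold change 0.32, SE 0.234). Hmgb2, a chromatin protein, was lowest in L-Pha low 3 at 699 CPM and lay between 992 and 1237 CPM elsewhere (log2 fold change 0.18, SE 0.23).

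Cyclins, their kinase and its small subunits gave a median of -0.01, with 3 of 6 higher. Cdk1, the kinase that drives mitosis, stood at 132, 133 and 159.6 CPM in the low libraries against 127, 178 and 187 CPM in the high libraries. L-Pha high 1 was the lowest of all libraries and the other high libraries were the highest (log2 fold change 0.21, SE 0.232). Ccnb1, its cyclin B1 partner, was at 25.9, 32.3 and 26.5 CPM in the low libraries and 29.3, 23.2 and 34.6 CPM in the high libraries, where the groups overlapped (log2 fold change 0.04, SE 0.268). Ccnb2 and Ccna2, which encode cyclins B2 and A2, lay at -0.23 and -0.10 on the log2 scale (SE 0.303 and 0.256). For Ccnb2 the value was 0.09 without L-Pha low 1, the library with its highest level of 41.1 CPM. The paralogous Cdk subunit genes Cks1b and Cks2 had point values on either side of 0, at 0.26 (SE 0.233) and -0.06 (SE 0.28). Cks1b stood at 226, 168 and 199.5 CPM in the low libraries and 182, 262 and 265 CPM in the high libraries, and Cks2 at 68.3, 46.2 and 35.8 CPM in the low libraries and 57, 40.4 and 46.6 CPM in the high libraries. For neither gene were the groups separated, and Cks2 was at 0.23 without low library 1.

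Checkpoint and anaphase genes had point values on either side of 0, from -0.15 for Cdc20 to 0.23 for Bub1b, with a median of 0.06 and 3 of 5 higher. Bub1 and Bub1b, kinases of the spindle checkpoint, were at -0.09 and 0.23 on the log2 scale (SE 0.318 and 0.287). Cdc20, which the checkpoint holds back from the anaphase-promoting complex, had -0.15 (SE 0.29), and 0.15 without L-Pha low 2. Ube2c, the ubiquitin-conjugating enzyme of that complex, had 0.23 (SE 0.22), and Cdca3, a cell division cycle-associated protein, 0.06 (SE 0.247).

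Of the tubulin group, Stmn1 was the member nearest the threshold. It encodes stathmin, which binds tubulin and destabilises microtubules, and is high in dividing lymphocytes. Stmn1 stood at 143, 159 and 159 CPM in the low libraries against 157, 262 and 213 CPM in the high libraries. L-Pha high 2 and 3 were above all low libraries, and L-Pha high 1 was level with them (log2 fold change 0.45, SE 0.236, edgeR adjusted p = 1). Tuba1b, an alpha-tubulin gene, was at 1992, 2445 and 2196 CPM in the low libraries and 2158, 2876 and 2385 CPM in the high libraries, with overlapping groups (log2 fold change 0.16, SE 0.202). Tubb5, a beta-tubulin gene, had -0.10 (SE 0.22).

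Some members share 3′ sequence with other annotated genes, and the counting assigned reads to every place they aligned, so their values are uncertain as separate genes. Of the 50-base words in the last 500 bases of the transcripts, 63.6% recurred elsewhere for Tuba1b, in Tuba1a and Tuba1c among others. The share was 39.9% for Cks2, 33.7% for Ccnb1, whose copies include the pseudogene Ccnb1-ps, and 33.0% for Stmn1. It was 32.7% for Mcm7, 30.5% for Hmgb2 and 11.6% for Cks1b, and under those values for every other member. Kif11, whose groups were separated, shared 9.53% of its words, with 99 other genes. Mcm5, Ube2c and Cenpf shared 1.65%, 1.66% and 2.97%, with 80, 63 and 54 other genes.

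The promoter classes described above were set beside these values. The 16 mitotic genes with CHR letters had a median log2 fold change of 0.23, with 13 higher, from -0.23 for Ccnb2 to 0.57 for Plk1. The 8 mitotic genes with a window but no CHR letters had a median of 0.10, with 5 higher, and included Cenpe with the highest value of the phase. The 5 replication genes with E2F letters ran from -0.16 to 0.07, and the 8 with a window but no such letters from -0.32 to 0.25. Gins2, Ccne2 and Mcm4, at 0.76, 0.31 and 0.12, had no window and were not classed. These are descriptions of few genes, and the ranges of the classes overlapped.

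Among other genes of mitosis, point values higher in L-Pha high also outnumbered lower ones. Of 54 other mitotic genes, all tested, 44 had higher point values in L-Pha high with a median of 0.36. By edgeR 0 were called in either direction, and 0 were called by DESeq2 or limma-voom. At an unadjusted p under 0.05 edgeR counted 1 of the 54 genes, against 3.78% of all tested genes in either direction. Leaving out single libraries gave medians from 0.26 (without L-Pha low 1) to 0.37, with 39 to 46 higher. Kifc1, a minus-end kinesin that gathers spindle poles, had the smallest p, at 16.2, 17.7 and 23.9 CPM in the low libraries and 23.2, 31.3 and 45.97 CPM in the high libraries (log2 fold change 0.80, SE 0.312). L-Pha high 1 was just under L-Pha low 3, and the other high libraries were above all low ones. In 4 of the 54 genes every high library was above every low one, against 4.23% of all genes. Kif15, a spindle kinesin, and Lmnb1, which encodes lamin B1, were among them, with log2 fold changes of 0.52 and 0.45 (SE 0.25 and 0.236), and neither passed by edgeR. CHR letters stood in 80.9% of the 47 windows of these other mitotic genes.

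Of 41 tested other replication genes 24 had higher point values, with a median of 0.09. By edgeR 0 were called in either direction, and 0 were called by DESeq2 or limma-voom. At an unadjusted p under 0.05 edgeR counted 2 of the 41 genes, against 3.78% of all tested genes in either direction. In 10 of the 41 every L-Pha high library lay above every L-Pha low library, against 4.23% of all genes. In 1 the reverse held, against 4.18%. The 2 at the unadjusted level were Clspn and Pole. Clspn encodes claspin, an adaptor of the replication checkpoint, and was at 27.8, 31.6 and 35.8 CPM in the low libraries and 42.1, 75.6 and 45.6 CPM in the high libraries (log2 fold change 0.78, SE 0.281). Pole, the catalytic subunit of polymerase epsilon, was at 4.21, 3.13 and 2.61 CPM in the low libraries and 7.19, 6.03 and 6.33 CPM in the high libraries, a low level (log2 fold change 0.96, SE 0.441). Dnmt1, the maintenance DNA methyltransferase, had 0.37 (SE 0.222), and Orc5, a subunit of the origin recognition complex, -0.53 (SE 0.319). Leaving out single libraries gave medians of the list from 0.058 to 0.20, with 22 to 28 higher. The median was 0.20 when low library 2 and 0.16 when high library 1 was left out.

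Regulators of the G1 phase had point values on either side of 0. Of 18 tested G1 cyclin, kinase and E2F genes 12 had higher point values, with a median of 0.17, and 0 were at an unadjusted p under 0.05 or called by edgeR, DESeq2 or limma-voom. Cdk6, a G1 kinase, was at 10.03, 6.95 and 4.85 CPM in the low libraries and 17.1, 12.1 and 9.66 CPM in the high libraries (log2 fold change 0.82, SE 0.388), and Cdc25a, a phosphatase that activates Cdk2, at 0.34 (SE 0.26). Tfdp2, a partner of E2F factors, had -0.72 (SE 0.354), and the growth regulator Myc -0.86 (SE 0.445), with 14.6, 16.3 and 8.2 CPM in the low libraries and 11.7, 3.62 and 6 CPM in the high libraries. Of 17 tested inhibitors and pocket proteins 8 had higher point values, with a median of -0.01 and 0 called by edgeR, DESeq2 or limma-voom. At an unadjusted p under 0.05 edgeR counted 1 gene, against 3.78% of all tested genes in either direction. That gene, Cdkn2a, encodes the inhibitors p16Ink4a and p19Arf, and was at 25.2, 20.8 and 7.08 CPM in the low libraries and 30.6, 47.6 and 26.3 CPM in the high libraries, with no overlap (log2 fold change 0.97, SE 0.394). The antiproliferative genes Btg2, Btg1 and Rbl2 had -0.54, -0.37 and 0.51 (SE 0.38, 0.279 and 0.401). Within L-Pha low, library 3 was the lowest for 13 of these 17 genes, against 37.2% of all genes.

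**Figure D3:**
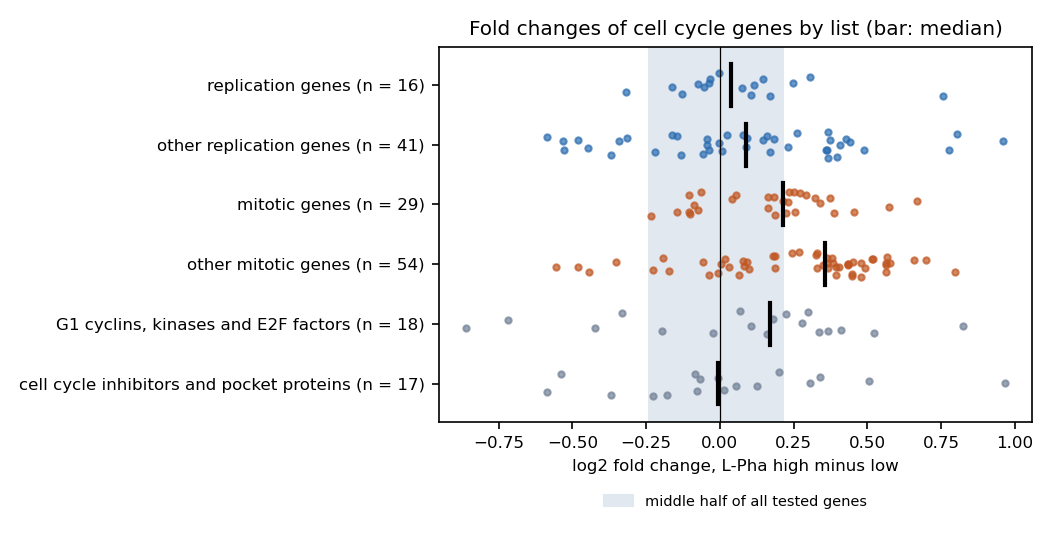
Log2 fold changes (L-Pha high minus L-Pha low) of single genes in 6 cell cycle lists, with the median as a black bar; the grey band runs from -0.24 to 0.21, the quartiles of all tested genes. The medians of the mitotic lists, 0.21 and 0.36, lie to the right of those of the replication lists, 0.04 and 0.09, and every list has genes on either side of 0.

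The level of each list was also followed library by library, as the median over its genes of the log2 level relative to the gene's mean over the 6 libraries. For the mitotic genes this was -0.12, -0.05 and -0.08 in low libraries 1, 2 and 3 against -0.06, 0.18 and 0.12 in the high libraries. L-Pha high 1 was thus level with the low libraries, and it was the lowest high library for 17 of 29 mitotic genes, against 34.9% of all genes. For the replication genes it was -0.09, 0.23 and -0.25 against -0.05, 0.09 and 0.07, so that the low libraries spanned the high ones. The other mitotic genes had -0.20, -0.10 and -0.04 against 0.07, 0.16 and 0.22, with no overlap. That separation was not tested, and 3 against 3 libraries allow no exact permutation p under 0.1. T cell markers had 0.47, 0.51 and -0.95 in the low and 0.16, 0.32 and -0.52 in the high libraries. Low library 3, with a median T cell marker difference of -1.53 (log2) from the mean of low libraries 1 and 2, differed from them by -0.22 in the replication genes and by 0.00 in the mitotic genes. L-Pha high 3, with a T cell difference of -0.80, differed from L-Pha high 1 and 2 by 0.05 and 0.04. With the T cell markers as a covariate the medians of the replication and mitotic genes were 0.06 and 0.23, and with the melanoma markers as a covariate 0.01 and 0.17, with 0 members called by edgeR in each. Over all 11183 genes 40 were called with the T cell and 4 with the melanoma covariate.

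**Figure D4:**
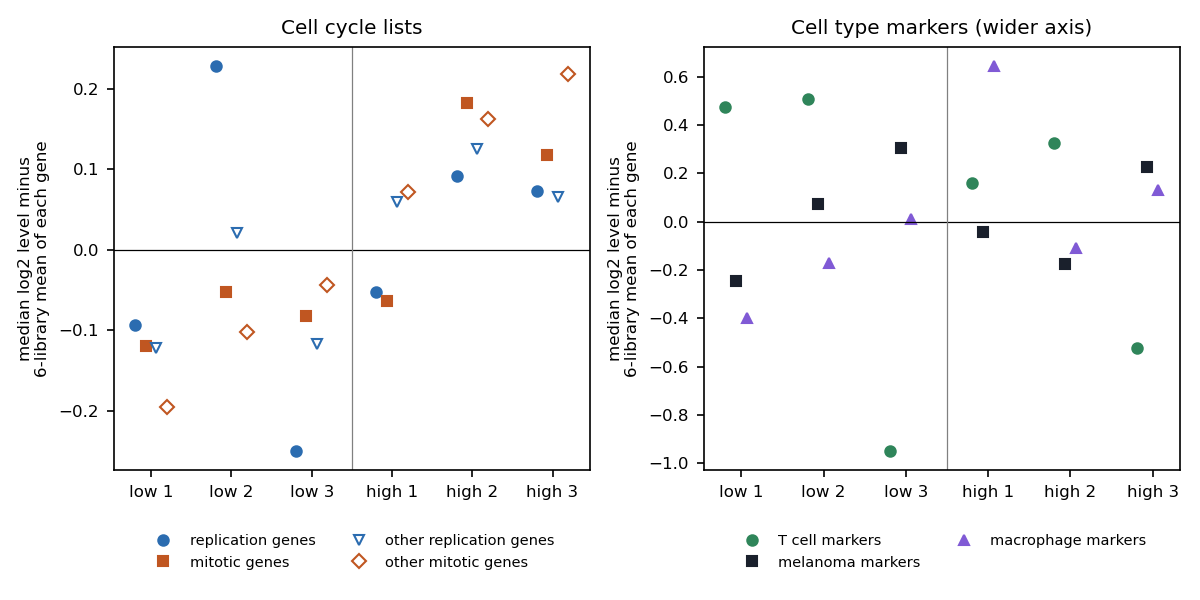
Median log2 level of each list in each of the 6 libraries, relative to each gene's mean over the libraries; cell cycle lists on the left and cell type markers on the right, with a wider vertical axis. The replication genes (filled circles) spread from -0.25 to 0.23 within L-Pha low, and T cell markers are lowest in low 3 and high 3.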

How the data were processed

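QuantSeq libraries, which read a transcript near its 3′ end, were made from 6 sorted T cell samples. The authors' deposited counts are whole-number read counts per gene, which per the file headers came from featureCounts 1.5.0-p3 with Ensembl 78 gene models (GRCm38). Reads were counted on the sense strand, at every alignment and for every gene they overlap, so near-identical genes share reads. The submitters' processing notes list cutadapt 1.7, HISAT2 2.1.0 and limma, and name the build hg19, while the header and the identifiers are of GRCm38. A deposited table of log2 values, whose making is not given in the sources used here, served for 1 alternative. Symbols came from GENCODE M21 (97.3% of identifiers).

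After filterByExpr and TMM scaling, the quasi-likelihood test of edgeR 4.0.16 (two-sided, robust, group as the sole term; R 4.3.3) was run on 11183 genes, with p-values adjusted by Benjamini and Hochberg's method. Levels are TMM-scaled CPM, and SE is derived from the F statistic. List levels by library are log2 CPM with a prior count of 2. The test was also run on simulated counts drawn independently for each gene and library, and its outcome there is not reported here. The members and lists were chosen with earlier results of these data known, so lists were described and not tested. Every member is named; library values are given for members at an unadjusted p under 0.05 or with separated groups and for 15 fixed genes, and up to 4 genes with the smallest p are named from each other list, of which 1 is not reported here. Alternatives were DESeq2 size factors, library totals, leaving out Gm42418, no filter or a minimum of 5 CPM in 3 of the libraries, the tools limma-voom (limma 3.58.1) and DESeq2 1.42.0, the log2 table, thinning, a block on library numbers, T cell or melanoma marker covariates, and leaving out each library.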

Additional observations from a re-analysis of the deposited data

How the results depend on the processing

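All 19 alternatives, of which the one without both libraries numbered 3 was added after seeing the data, left 0 replication and 0 mitotic members called. Over all genes 47 were called without a filter, 43 with the replicate block, 40 with the T cell covariate, 27 by DESeq2, 8 without L-Pha low 3 and 0 to 4 in each other alternative. The smallest adjusted p of any member in any of them was 0.160 (Cenpe). Of the 45 members 22 kept their direction in all 19 (21 higher, and Mcm2 lower) and 23 changed it in at least 1 without being called. Leaving out single libraries gave medians of -0.08 to 0.17 for replication, 0.14 to 0.25 for mitotic, 0.058 to 0.20 for other replication and 0.26 to 0.37 for other mitotic genes. Scaling by library totals alone moved the median of all genes from -0.01 to 0.10 and those of the mitotic, other replication and other mitotic genes to 0.32, 0.20 and 0.45. With the replicate block 0 members were called, with medians of 0.06 and 0.21. Same-numbered libraries correlated in their deviations from the group means at 0.37, 0.08 and 0.47 for numbers 1, 2 and 3. Libraries with unlike numbers correlated at -0.44 to 0.13, the highest being L-Pha low 2 with L-Pha high 1. The labels do not say that the numbers mark pairs, so the main test did not use them. Whether the libraries are paired remains unsettled. Standard errors of 0.202 to 0.366 limit what 3 libraries per group can show: differences of the size of these medians were not detectable for a single gene.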
